A study of Drosophila melanogaster with 3 samples.

Results

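The genes described are 10 enzymes of mucin-type O-glycosylation: the 9 polypeptide GalNAc transferase genes Pgant2, Pgant3, Pgant4, Pgant5, Pgant6, Pgant7, Pgant8, Pgant9 and Pgant35A, and the core 1 galactosyltransferase gene C1GalTA. They were chosen by gene symbol, and all 10 were found among the 17278 FlyBase identifiers of the deposited table. The tissue was the larval salivary gland of Drosophila melanogaster at the L3 stage, from flies kept at 25 °C, with 50 dissected glands in each sample, and poly(A) RNA was sequenced. The 3 libraries, replicates 1 to 3, form 1 group of control glands. Their titles name an Oregon wild-type stock and their genotype field reads yw, so the stock is uncertain, and no treatment or transgene is named. The design therefore describes levels in 1 tissue and their spread between libraries. The labels do not say whether separate cultures or animals were used, so p-values measure only the spread between these libraries, which may be technical.

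Mucin-type O-glycosylation begins in the Golgi, where polypeptide GalNAc transferases add N-acetylgalactosamine from UDP-GalNAc to serine and threonine. C1GalTA then adds galactose and makes the core 1 structure, also called the T antigen. In the larval salivary gland the main acceptors are the mucins of the glue, such as Sgs3, packed into secretory granules late in larval life, and in flies Pgant9 is known to glycosylate the glue protein Sgs3. Different transferases prefer different sites, some acting on bare peptides and others on peptides that already carry GalNAc.

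Depth set what could be seen of low genes. The deposited unit is FPKM, which divides fragments by the length of a gene and by a total for its library. From 1490261 to 1571525 fragments per library were recovered from these values, of which 24.6% to 55.0% lay in rRNA pseudogenes. The totals implied by the FPKM values were 499875, 727436 and 945562 fragments in replicates 1, 2 and 3. They were below the recovered fragments of each library, also outside rRNA pseudogenes, and what they counted is not known. In replicates 1, 2 and 3, each fragment of a gene with 2000 exon bases was worth 1.0, 0.687 and 0.529 FPKM. Genes with at least 1 FPKM in every library were called detected, as were 33.1% of all genes and 40.1% of protein-coding genes. All 8 salivary gland markers were detected, among them the gland transcription factor gene sage at 773, 726 and 670 FPKM in replicates 1, 2 and 3. Fat body markers were also detected, 8 of 8, with a summed level of 2896, 4120 and 4312.5 FPKM. The markers did not move together. In replicates 1, 2 and 3, Fbp1 had 1037, 1468 and 272 FPKM, whereas Lsp1gamma had 557, 798 and 1331. The lowest were apolpp at 20.0 ± 12.3 and FASN1 at 4.20 ± 1.71 FPKM (SD, n = 3). Of the 6 midgut markers none was detected, and 4 were listed at 0 in every library. Muscle markers summed to 27.8 to 52.3 FPKM per library and trachea and cuticle markers to 13.5 to 22.0. The part of other tissues in the enzymes' levels was not tested, and in a bulk sample fewer cells of a type and less RNA per cell cannot be told apart.

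Of the 10 genes, 4 transferases were abundant, Pgant9, Pgant6, Pgant7 and Pgant5, all above 90 FPKM in every library. Pgant3 was intermediate, Pgant8 was low, and Pgant4 and Pgant2 were at or near the limit of detection. C1GalTA had 37.6 FPKM in replicate 2 but lay below Pgant8 in replicates 1 and 3, and the level of Pgant35A is not known. Of the 10 genes, 7 reached 1 FPKM in every library, beside 33.1% of all genes and 40.1% of protein-coding genes. The median member had a mean log2(FPKM + 1) of 3.67, beside 0.37 for the median of all 17278 genes.

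**Figure D1:**
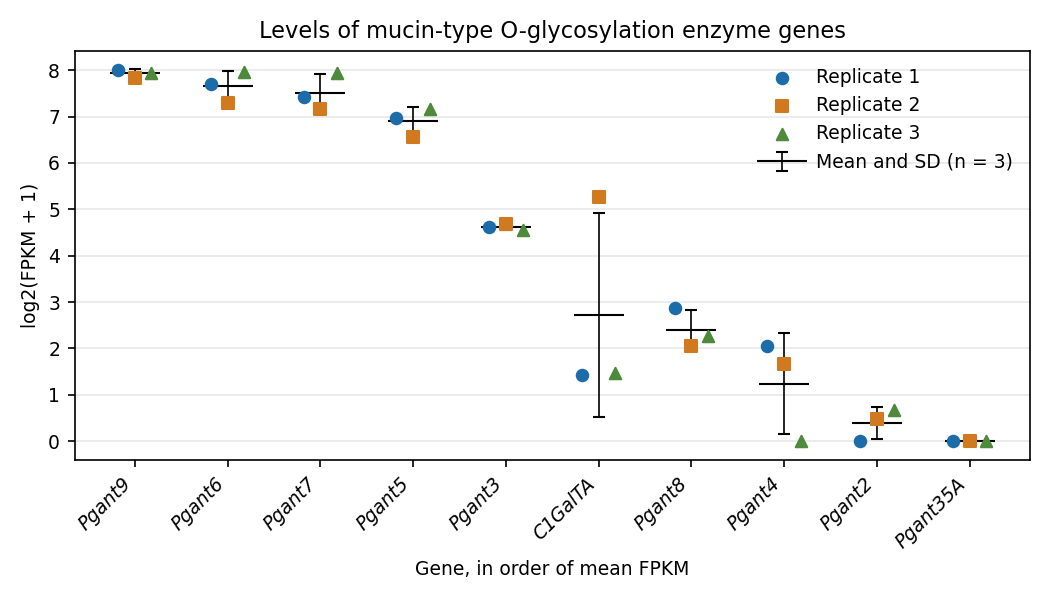
Level of each gene as log2(FPKM + 1) in replicates 1, 2 and 3 (points), with the mean and SD of the 3 libraries (bars), in order of mean FPKM. The 4 leading genes lie close together, C1GalTA is high in replicate 2 alone, and Pgant35A is listed at 0.

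Pgant9 (FBgn0050463, BDGP6.54 2R 16673235 to 16732916, minus strand), the transferase known to act on Sgs3, had 257, 227 and 245 FPKM in replicates 1, 2 and 3. The mean was 243 ± 15.1 FPKM (SD, n = 3), which rested on 3206 fragments and stood at rank 243 of 13829 protein-coding genes. Its range over the libraries was 0.18 on the log2(FPKM + 1) scale, and 0.61 with an equal sum per library (TPM). With median-ratio scaling the range was 0.12, and with an equal sum outside rRNA pseudogenes it was 0.08. The gene has 5 annotated transcripts of 1199 to 5876 bases, and its known splice forms prefer different substrates. The table gives 1 value per gene over 6101 exon bases, so the forms cannot be told apart. Divided by the median transcript length in place of all exon bases, the level of Pgant9 was 365 ± 22.7 FPKM (SD, n = 3), and all 10 genes kept their place in the order.

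Pgant6 (FBgn0035375, 3L 2782255 to 2786010, plus strand) had 209, 157 and 247 FPKM in the same order of libraries, a mean of 204 ± 45.5 (SD, n = 3). Pgant7 (FBgn0030930, X 18495067 to 18499986, minus strand), reported as a glycopeptide transferase that acts after other family members, had 170, 142 and 246 FPKM, a mean of 186 ± 53.7. Pgant5 (FBgn0031681, 2L 5072170 to 5093592, minus strand), which is needed for normal acid in the larval gut and acts on bare peptides, had 125, 93.8 and 143 FPKM, a mean of 120 ± 24.7. These 3 genes were lowest in replicate 2 and highest in replicate 3, whereas Pgant9 was highest in replicate 1. Among genes of similar level, with a mean between 4.45 and 243 FPKM, 22.6% also had their lowest value in replicate 2 and their highest in replicate 3. The lowest library depends on scaling. With TPM, whose sum includes rRNA pseudogenes, it was replicate 1 for Pgant5, Pgant6, Pgant7 and Pgant9, and the highest was replicate 3 for all 4. With an equal sum outside rRNA pseudogenes, the lowest was replicate 2 for Pgant5 and Pgant6 and replicate 1 for Pgant7 and Pgant9. The highest was then replicate 3 for Pgant5, Pgant6 and Pgant7 and replicate 2 for Pgant9. Median-ratio scaling kept the lowest and highest libraries of the deposited values for all 4. Its factors were only 0.984, 1.02 and 0.969 in replicates 1, 2 and 3, so it hardly changed the deposited values and is a weak check.

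Within libraries, the difference Pgant9 minus Pgant6 was 0.27 ± 0.28 (SD, n = 3) as log2(FPKM + 1). It was above 0 in 2 of 3 libraries and barely below its SD, at 0.2733 against 0.2760. By that measure these neighbours did not differ beyond their spread, though only narrowly. Pgant6 minus Pgant7 was 0.15 ± 0.14, higher in 3 of 3 libraries but by only 0.01 in replicate 3. It was barely above its SD, at 0.1456 against 0.1436. Pooled over the 3 libraries, the ratio of fragments per exon base was 1.07 (95% exact interval 0.996 to 1.16), which includes 1. For Pgant9 and Pgant6 the pooled ratio was 1.16 (1.09 to 1.24). The step from Pgant7 to Pgant5 was 0.61 ± 0.17, more than its SD, in 3 of 3 libraries. Its pooled ratio was 1.59 (95% exact interval 1.47 to 1.71), beside 1.37, 1.52 and 1.73 in replicates 1, 2 and 3. In replicate 3, Pgant9, Pgant6 and Pgant7 lay at 245, 247 and 246 FPKM. The ratio of Pgant9 to Pgant6 per exon base was 1.23 (1.08 to 1.41) in replicate 1, 1.45 (1.28 to 1.65) in replicate 2 and 0.989 (0.901 to 1.09) in replicate 3. Per exon base, the first place of Pgant9 was thus seen in 2 of the 3 libraries. Divided by median transcript length, Pgant9 had 387, 342 and 368 FPKM in replicates 1, 2 and 3. Pgant6 then had 213, 160 and 253 FPKM and Pgant7 182, 152 and 263, so Pgant9 led in every library. By the longest transcript, replicate 3 gave 254 FPKM for Pgant9, 247 for Pgant6 and 246 for Pgant7. The first place of Pgant9 in replicate 3 therefore depends on the length used.

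Across the 9 transferases, Pgant9 took 32.4%, 34.9% and 27.0% of the summed FPKM in replicates 1, 2 and 3, a mean of 31.4% ± 4.08 (SD, n = 3). Pgant6 took 25.9% ± 1.63, Pgant7 23.5% ± 3.16 and Pgant5 15.3% ± 0.744, and together the 4 genes took 96.1% ± 0.888. Such shares do not depend on how libraries are scaled, but they do depend on the length by which each gene is divided. By recovered fragments, which give long genes more weight, replicate 1 gave Pgant9 45.7% (43.3% to 48.0%, 95% Wilson interval), replicate 2 gave 48.5% (46.3% to 50.6%), and replicate 3 gave 39.1% (37.5% to 40.7%). Replicate 3 was lower than the others beyond counting error, which is all that these intervals cover. Pgant7 showed the opposite, with 23.7% of fragments in replicate 3 (22.3% to 25.1%) against 18.2% (16.4% to 20.0%) in replicate 1.

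A further transferase gene outside the 10, Pgant1, did not differ per exon base from Pgant9 beyond the spread between libraries. It had 208, 184 and 325 FPKM in replicates 1, 2 and 3, a mean of 239 ± 75.4 (SD, n = 3). Pgant9 minus Pgant1 was 0.07 ± 0.41 on the log2(FPKM + 1) scale, higher in 2 of 3 libraries. This too depends on the length used. Divided by median transcript length, Pgant9 had 387, 342 and 368 FPKM in replicates 1, 2 and 3 and Pgant1 had 215, 190 and 336. Pgant9 was then higher in every library. By the longest transcript, Pgant1 was still higher in replicate 3, at 333 FPKM against 254. With Pgant1 and 4 genes known by number added, the 14 transferase genes summed to 1025 ± 198 FPKM, and Pgant9 took 24.2% ± 3.85 and Pgant1 23.0% ± 2.95 of it. The 4 added genes known by number, CG7304, CG7579, CG31776 and CG10000, carry dppGalNAcT names as RefSeq synonyms and rested on 3, 1, 1 and 0 fragments over the 3 libraries.

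**Figure D2:**
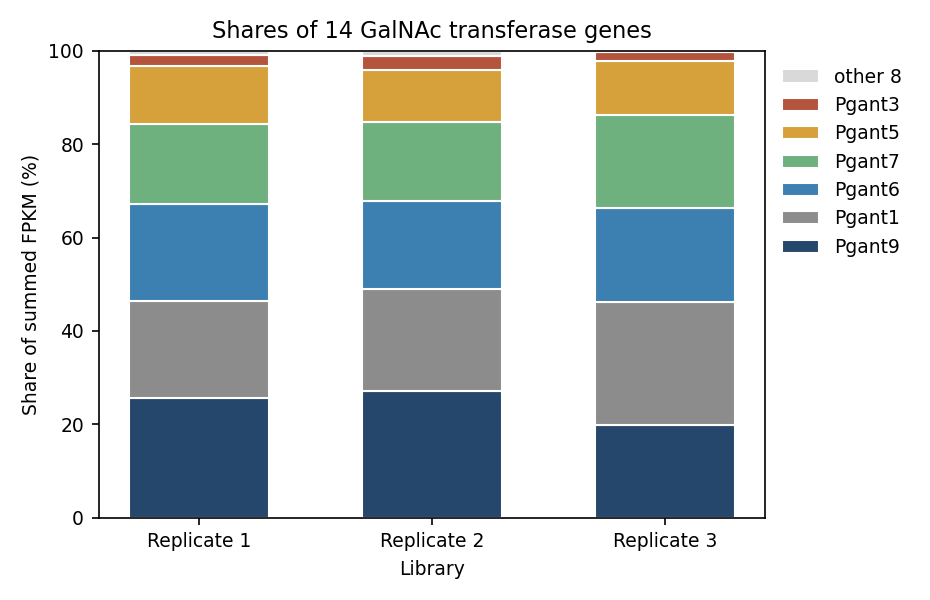
Share of the summed FPKM of 14 GalNAc transferase genes in each library, in percent, with 8 low genes joined. Pgant9, Pgant1, Pgant6, Pgant7 and Pgant5 together fill 95.9% to 97.8% of each bar, and the share of Pgant9 is smallest in replicate 3, at 19.9%.

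**Figure D3:**
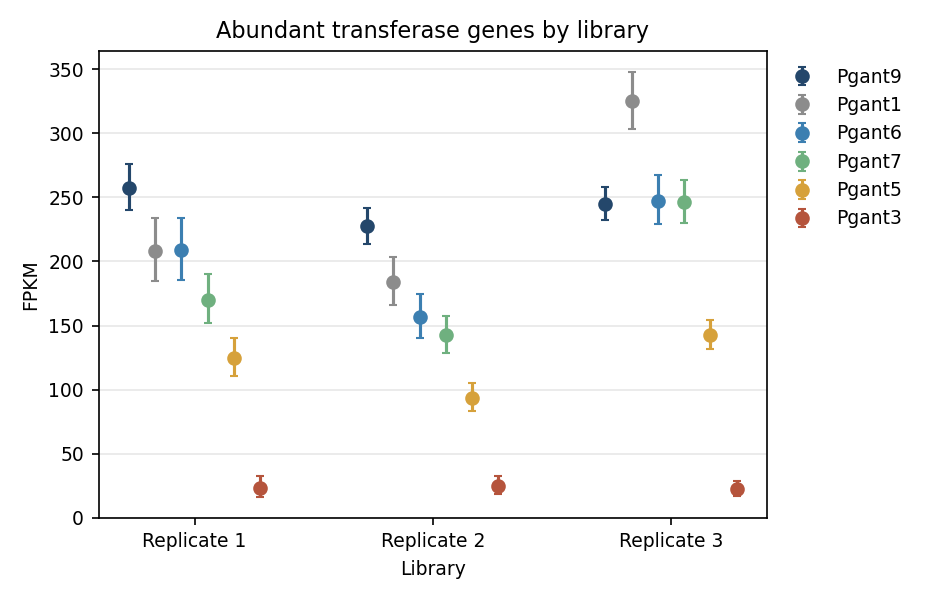
FPKM of the 6 most abundant transferase genes in each library, with 95% exact Poisson intervals of the recovered fragments (counting error only). In replicate 3, Pgant1 lies at 325 FPKM, above Pgant9, Pgant6 and Pgant7, which coincide near 246.

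Pgant3 (FBgn0027558, 2R 7057654 to 7061732, minus strand) modifies the integrin ligand tiggrin in the wing. It had 23.6, 24.8 and 22.4 FPKM in replicates 1, 2 and 3, which averages 23.6 ± 1.21 (SD, n = 3) over 147 fragments. The 3 libraries lay within 0.14 on the log2(FPKM + 1) scale. Pgant5 exceeded it by 2.28 ± 0.38 on the log2(FPKM + 1) scale, in 3 of 3 libraries. The ratio per exon base pooled over libraries was 5.21 (95% exact interval 4.38 to 6.22), beside 5.28, 3.78 and 6.38 in replicates 1, 2 and 3. Genes of the tiggrin adhesion system were also present in the gland. The tiggrin gene Tig had 6.72 ± 1.16 FPKM, and the integrin subunit genes mys, mew and if had 49.6 ± 12.8, 30.4 ± 1.67 and 20.8 ± 6.80 FPKM (SD, n = 3).

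At the low end, Pgant8 (FBgn0036529, 3L 15683872 to 15686598, plus strand) had 6.37, 3.13 and 3.85 FPKM in replicates 1, 2 and 3, from 7, 5 and 8 fragments. It shares 10.6% of its exon bases with CG34452 on the other strand, and the counting is marked as unstranded. CG7304 and CG7579, its upstream neighbours, had 3 fragments and 1 fragment, all in replicate 2. Pgant4 (FBgn0051956, 2L 3472603 to 3475338, plus strand) is known from the larval digestive tract, where it protects the secretory factor Tango1 from cleavage by the furin Fur2. It had 3.15 and 2.16 FPKM in replicates 1 and 2, from 4 fragments each, and none in replicate 3, whose limit at a count of 0 was 1.25 FPKM. Fur2 itself had 3.24 ± 0.680 FPKM (SD, n = 3). Pgant8 minus Pgant4 was 1.16 ± 0.99 on the log2(FPKM + 1) scale, higher in 3 of 3 libraries. The ratio per exon base pooled over libraries was 2.89 (95% exact interval 1.22 to 7.59). The intervals of replicates 1 and 2 included 1, at 0.514 to 9.43 and 0.311 to 7.28. In replicate 3, where Pgant4 had no fragment, the lower bound was 1.97.

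Pgant2 (FBgn0031530, 2L 3404460 to 3426719, minus strand), a transferase for bare peptides, rested on 3 fragments in all. Replicate 1 had none, with a limit of 1.68 FPKM, and had 0.385 and 0.592 FPKM in replicates 2 and 3. Pgant4 minus Pgant2 was 0.86 ± 1.39, so these neighbours did not differ beyond their spread. Their ratio per exon base pooled over libraries was 3.75 (95% exact interval 0.900 to 21.9). Pgant35A (FBgn0001970, 2L 14359252 to 14361411, plus strand), an essential gene known for its role in the apical surface of epithelial tubes, was listed at 0 in every library. Of its 2160 exon bases, 93.5% lie under the antisense RNA asRNA:CR43463, itself listed at 0. Only 141 bases belong to Pgant35A alone, so its level is not known and it was not ranked against Pgant2.

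C1GalTA (FBgn0032078, 2L 8943455 to 8951216, minus strand) had 1.68, 37.6 and 1.78 FPKM in replicates 1, 2 and 3, from 2, 65 and 4 fragments. Replicate 2 was high and the others were near the limit of detection. The ratio of replicate 2 was 22.3 to replicate 1 (95% exact interval 5.94 to 188) and 21.1 to replicate 3 (7.87 to 79.8), whereas replicates 3 and 1 had a ratio of 1.06 (0.152 to 11.7). No exon base is shared with another annotated gene. Of the 10 genes, 1, C1GalTA, had a replicate 2 value above both other libraries by at least 2 on the log2(FPKM + 1) scale, as had 0.955% of all genes and 0.99% of genes of similar level. These shares were taken for replicate 2 alone, the library in which C1GalTA was high, so they are a description and not a test. C1GalTA counts among genes of similar level only through replicate 2, as 1.68 and 1.78 FPKM lie below the bound of 4.45. C1GalTA was also highest in replicate 2 with TPM, with median-ratio scaling and with an equal sum outside rRNA pseudogenes. A range over the libraries above 1 on this scale was seen for 2 of the 10 genes, C1GalTA at 3.85 and Pgant4 at 2.05, beside 24.5% of all genes and 35.4% of genes of similar level. With pseudocounts of 0.1 and 0.01 it was seen for 4 genes, with Pgant8 and Pgant2 added, beside 37% and 37.5% of all genes and 39.3% and 39.7% of genes of similar level. With TPM it was seen for 3 genes, C1GalTA, Pgant7 and Pgant4, beside 21% of all genes and 46.8% of genes of similar level. Median-ratio scaling and an equal sum outside rRNA pseudogenes each gave 2 genes.

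**Figure D4:**
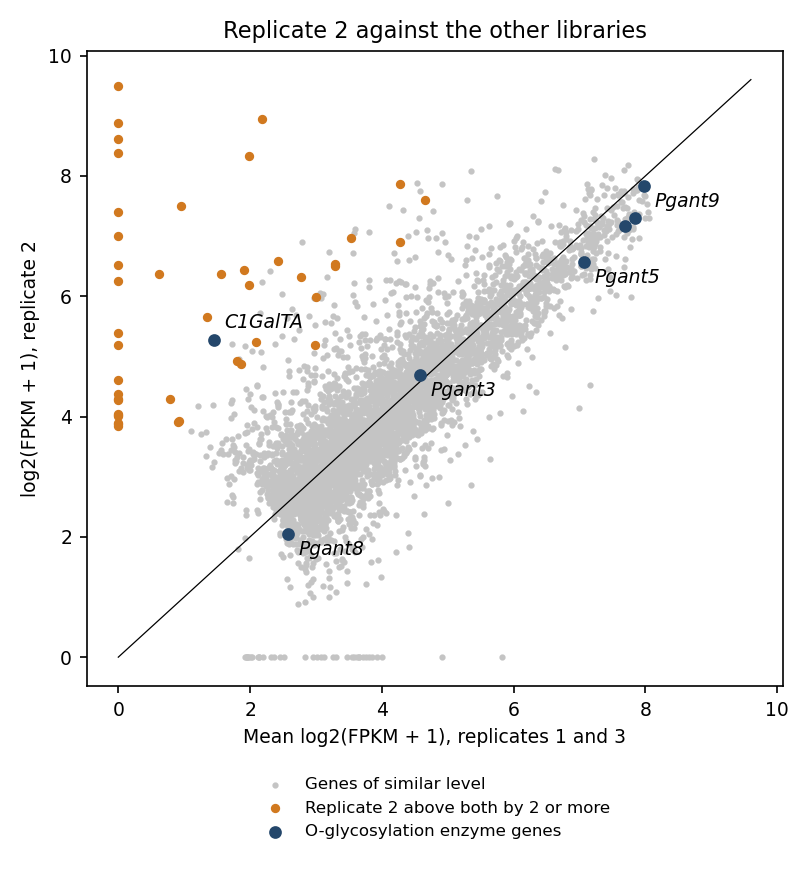
log2(FPKM + 1) in replicate 2 against the mean of replicates 1 and 3 for the 4547 genes with a mean between 4.45 and 243 FPKM (grey), those above both other libraries by at least 2 (orange) and the 7 detected O-glycosylation enzyme genes (blue), with the line of equal level. C1GalTA lies with the orange genes, whereas the 6 transferases lie near the line.

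Because of replicate 2, the place of C1GalTA in the order is unsure. It lay below Pgant9, Pgant6, Pgant7 and Pgant5 in 3 of 3 libraries. C1GalTA minus Pgant9 was -5.21 ± 2.29 (SD, n = 3) as log2(FPKM + 1). Pgant3 minus C1GalTA was 1.90 ± 2.15, higher in 2 of 3 libraries, and C1GalTA minus Pgant8 was 0.32 ± 2.54, higher in replicate 2 alone. Without replicate 2, C1GalTA minus Pgant8 turned to -1.13. For these and the other pairs of neighbours or with C1GalTA, 14 in all without Pgant35A, the two-sided exact sign-flip permutation test over 3 libraries cannot go below p = 0.25, so no pair could pass a threshold of 0.05. Of the 8 neighbouring pairs without Pgant35A, 4 had a difference above its SD, 2 did without replicate 1, and 6 did without replicate 3.

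Markers of blood cells, in which C1GalTA is known to act in flies, were also highest in replicate 2 as a sum. The 6 hemocyte markers summed to 14.7, 35.8 and 17.6 FPKM in replicates 1, 2 and 3, and none was at 0 in all libraries. Of them 2 were detected (33.3%), near the 33.1% of all genes and below the 40.1% of protein-coding genes. The sum was mostly the scavenger receptor gene crq, at 9.83, 26.5 and 14.1 FPKM. The GATA factor gene srp had 1.76, 2.43 and 1.12 FPKM, and He, also highest in replicate 2, had 4.09 FPKM there from 2 fragments and none in the others. Hml, a defining hemocyte gene, had 0.851, 0.702 and 0.900 FPKM and NimC1 0.608, 0.418 and 0.964, both lowest in replicate 2. Pxn, the peroxidasin gene, had 1.68, 1.62 and 0.533 FPKM. A peak in replicate 2 was not confined to hemocyte markers. Of the 4 highest fat body markers, Fbp1 and Fbp2 were also highest in replicate 2, whereas Lsp1gamma and Lsp1beta were highest in replicate 3. The markers' part in the level of C1GalTA was not tested.

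The genes nearest to C1GalTA over the 3 libraries, by the smallest largest difference in log2(FPKM + 1), were Eip63E, a cyclin-dependent kinase gene induced by ecdysone, the transferrin family gene Tsf3 and CG17646. Eip63E had 3.06, 28.1 and 2.26 FPKM in replicates 1, 2 and 3 and differed from C1GalTA by at most 0.60. Tsf3 had 4.21, 29.5 and 1.33 FPKM, and CG17646 had 3.94, 18.6 and 2.08 FPKM. For Pgant9 the nearest were Sec23, which encodes a coat protein of vesicles leaving the endoplasmic reticulum, Gdi, a regulator of Rab GTPases, and the translation factor gene eIF3h. Sec23 had 240, 216 and 225 FPKM, within 0.12 of Pgant9 in every library. With 3 libraries, such likeness is a description only.

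Relatives of C1GalTA were measured too. CG2975, with the RefSeq synonym dC1GalT4, had 57.3, 54.7 and 33.7 FPKM in replicates 1, 2 and 3, and CG8708, with the synonym dC1GalT2, had 19.3, 13.3 and 32.4. CG2975 exceeded C1GalTA in 3 of 3 libraries, by 2.87 ± 2.07 (SD, n = 3) as log2(FPKM + 1). In replicate 2 alone the ratio per exon base was 1.46 (95% exact interval 1.03 to 2.06). Of the 10 matched relatives, 2 were detected in every library (20%), below the 40.1% of protein-coding genes, and CG2983 and CG34057 were listed at 0.

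The other genes of the pathway were counted from lists chosen with earlier results of these data known. Of 15 matched genes for sugar nucleotides, 14 were detected in every library (93.3%), beside 40.1% of protein-coding genes. Gnpnat, an acetyltransferase on the way to UDP-GlcNAc, had 342 ± 84.2 FPKM, the galactokinase gene Galk 161 ± 31.5 and the pyrophosphorylase gene mmy 71.3 ± 4.12, whereas the UDP-glucose dehydrogenase gene sgl had 3.98 ± 1.81 (SD, n = 3). The sugar nucleotide transporter gene frc was listed at 0, but all of its exon bases lie in exons of another gene, so its level is not known. All 3 glucuronyltransferase genes, a family in which some enzymes can extend core 1 in flies, were detected, beside 40.1% of protein-coding genes. GlcAT-I had 28.5 ± 7.41 FPKM, GlcAT-P 15.3 ± 6.76 and GlcAT-S 6.24 ± 3.07.

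Genes of the glue far outweighed the enzymes. The 4 whose proteins carry mucin repeats, Sgs1, Sgs3, Sgs4 and Eig71Ee, summed to 308883 ± 47294 FPKM (SD, n = 3), from Sgs1 at 5760 ± 1688 to Sgs3 at 199524 ± 39418. Per FPKM of the 14 transferases, these 4 genes had 363, 337 and 228 FPKM in replicates 1, 2 and 3. The 4 other glue genes, Sgs5, Sgs5bis, Sgs7 and Sgs8, which encode short proteins without such repeats, summed to 587307 ± 87805 FPKM. Among 19 other mucin genes, Muc68Ca alone was detected in every library, at 261, 135 and 344 FPKM. Its mean of 247 ± 105 lay beside that of Pgant9. Of the remaining mucin genes, Mur2B was highest at 1.14 ± 0.878 FPKM, and 13 were listed at 0 in every library.

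**Figure D5:**
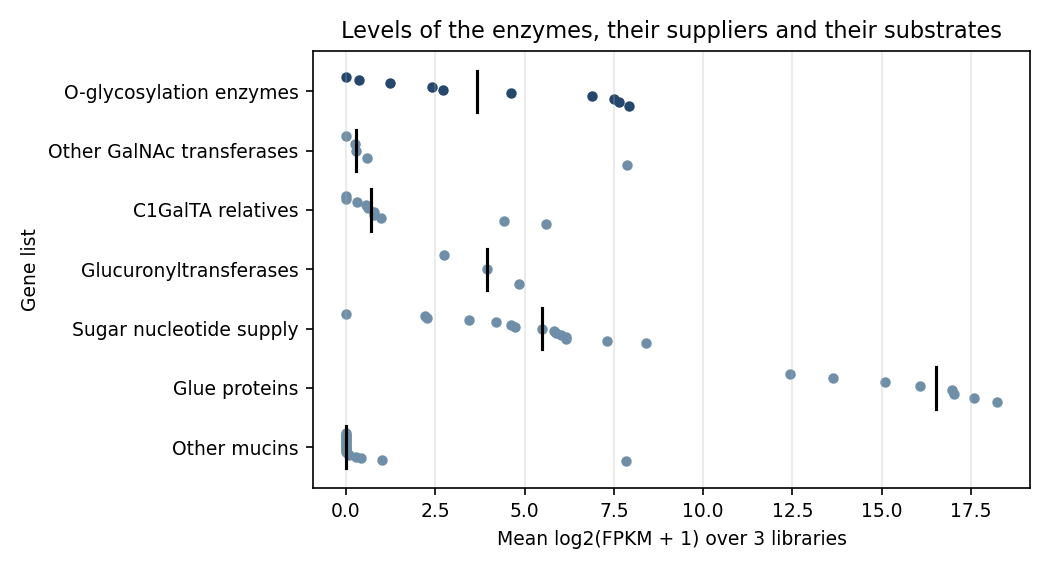
Mean log2(FPKM + 1) over 3 libraries of each gene (points) in 7 lists, with the median of each list (vertical bars). The glue genes lie between 12.4 and 18.2, the enzymes spread from 0 to 7.93, and 1 of the other mucin genes, Muc68Ca, stands at 7.85.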

How the data were processed

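The authors deposited FPKM values, without their fragment counts, for 3 libraries. The kit was directional, per the labels' protocols, and the table's name marks its counting as unstranded. Per the submitters' processing notes, the tools included HISAT2 and DESeq. Not given in the sources used here are the build, annotation and counter.

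Of 17278 identifiers, 17142 had an entry in Ensembl release 115 (BDGP6.54), which gave symbols, lengths and coordinates. FPKM times exon length gave whole multiples of 1 step per library, within 0.01, for 98.7% to 98.8% of values above 0, and these recovered fragments served for intervals and limits. A count of 0 was taken to allow 3 fragments. Intervals cover counting error only. Ratios per exon base given for no single library pool the fragments of the 3 libraries, so their intervals leave out the spread between libraries. No count model was fitted, as there is 1 group.

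Levels were compared within libraries as log2(FPKM + 1), which understates ratios of low genes, with two-sided exact sign-flip permutation tests. Detection meant 1 FPKM in every library. The members and lists were chosen with earlier results of these data known. All 10 members were named, with the 4 highest and 2 lowest genes of each other list as the pool for further names, and the 3 protein-coding genes nearest to Pgant9 and to C1GalTA. Hemocyte markers, genes beside a member, Mgat1, Sgs4 and Eig71Ee were named, and the glue genes split, after their values were seen. Genes listed but not matched were not analysed here, and 1 further gene is not reported here. Alternatives were other limits, pseudocounts, scalings, lengths and backgrounds, and each library left out. Fragment recovery was tested on simulated data. The software was Python 3.11.15 with pandas 2.3.3, numpy 2.4.6, scipy 1.17.1 and matplotlib 3.10.9.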

Additional observations from a re-analysis of the deposited data

How the results depend on the processing

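Of 14 distinct pairwise differences without Pgant35A under 8 alternatives, 111 of 112 values had the direction reported. C1GalTA minus Pgant8 turned to -1.13 without replicate 2 (1.21 without replicate 1). None of the alternatives could turn a pair with the same sign in all 3 libraries, so the direction of such pairs was fixed beforehand. This held for 4 neighbouring pairs and for C1GalTA minus Pgant9, Pgant6, Pgant7, Pgant5 and Pgant2. The count of detected members was 7 with 0.5 FPKM and between 6 and 8 under the other alternatives. The share of Pgant9 was 44.4% of fragments and 24.2% with the other transferases added, and 29.7% to 33.7% with a library left out. With Pgant35A kept at its listed 0, 5 of 9 neighbouring pairs were beyond their SD, 3 without replicate 1 and 3 to 6 with any library left out. Without Pgant35A, a choice made after seeing the data, these were 4 of 8, 2, and 2 to 6. Members with a range above 1 numbered 4 with pseudocounts of 0.1 and of 0.01 and 3 with TPM. They numbered 2 with median-ratio scaling and with an equal sum outside rRNA pseudogenes. The members' median exceeded that of all genes by 3.30, that of protein-coding genes by 2.94, and that of genes averaging at least 1 FPKM by 2.63 (8 members kept). With TPM, the median gene of at least 1 FPKM shifted by -1.20, -0.78 and -0.66 in replicates 1, 2 and 3. No paired analysis was possible because there is 1 group, so no groups could be matched by replicate number, and differences between genes were taken within each library. Depth limits Pgant2, Pgant4, Pgant8 and C1GalTA, which rest on 3 to 71 fragments.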

Other observations

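Enzymes of N-glycosylation, which attach and trim sugars on asparagine, were detected throughout. All 15 matched genes reached 1 FPKM in every library, beside 40.1% of protein-coding genes. Subunit genes of the oligosaccharyltransferase led, with Ostgamma at 309, 259 and 535 FPKM in replicates 1, 2 and 3, Ost48 at 336 ± 64.7 FPKM and Stt3B at 233 ± 90.0 (SD, n = 3). Ostgamma and Ost48 lay above Pgant9 in every library. Golgi trimming and branching genes of the same list ranged from Mgat2 at 1.45 ± 0.239 and alpha-Man-Ia at 3.36 ± 0.697 to Mgat1 at 22.9 ± 8.68 FPKM.

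Of 9 genes for other kinds of O-glycosylation, 6 were detected (66.7%), beside 40.1% of protein-coding genes. Their median log2(FPKM + 1) was 2.23, beside 0.73 for protein-coding genes. The highest was sxc, the O-GlcNAc transferase gene, at 10.6 ± 4.24 FPKM (SD, n = 3). Eogt followed at 10.1 ± 3.04, and the Notch-modifying gene fng had 0.574 ± 0.522 from 2 fragments. All 10 genes of glycosaminoglycan synthesis were detected, between ttv at 1.96 ± 0.596 and the heparan sulfate sulfotransferase gene Hs2st at 17.2 ± 4.01 FPKM. The 4 leading Pgant genes thus lay above all 19 genes of these lists in every library.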
